A study of Mus musculus with 9 samples.

Results

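Called binding sites of the homeodomain proteins Hoxa13 and Hoxa11 were described in 3 genome windows named for genes of the Eph receptor family, Epha3, Epha4 and Epha7, in embryonic limbs of wild-type ICR mice. The members are the ChIP-seq (chromatin immunoprecipitation and sequencing) peaks that start in 3 windows of the mouse build mm9. The Epha3 window runs from 63000000 to 64000000 on chromosome 16, the Epha4 window from 77250000 to 77900000 on chromosome 1, and the Epha7 window from 28400000 to 29100000 on chromosome 4. They hold 450 of the 243649 peaks in 5 lists: 277 in the Epha3 window, 67 in the Epha4 window and 106 in the Epha7 window. The windows were chosen by position with the peak counts of these data known, and the Epha3 window was selected on its Hoxa13 peak count, which is among the highest. Its number of peaks is therefore a description and not a finding.

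For Hoxa13 there is 1 library of the autopod (the future hand or foot) at embryonic day 11.0, written E11.0, 1 of whole limb buds of E11.5 and 1 of E12.5 limb buds. Hoxa11 was precipitated from E11.5 limb buds in replicates 1 and 2, and the other 4 of 9 libraries are input DNA, which was not analysed here. Every embryo was wild type, and each precipitate pooled tissue of several embryos at the earlier stages: 11 pairs of autopods at E11.0 and the limb buds of a litter at E11.5, with 10 µg of Hoxa13 or 8 µg of Hoxa11 antibody. The antibodies were home-made, and E12.5 was prepared by another, earlier procedure, so stage, dissected tissue and protocol cannot be told apart. With 1 library per stage there is no replicate check and no test between stages. The lists held 50890, 143460 and 44699 Hoxa13 peaks at E11.0, E11.5 and E12.5, and 2953 and 1647 Hoxa11 peaks in replicates 1 and 2. Read depth is unknown, and a longer list gives more peaks in any window.

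Eph receptors are tyrosine kinases of the cell surface that bind ephrins, ligands held on the membrane of neighbouring cells. The contact sets off signals in both cells that change adhesion or repulsion and sort cells into groups. In the limb, Epha4 is best known for steering motor axons, and the large regulatory region around it holds limb enhancers whose displacement to neighbouring genes causes digit malformations in mice and people. Epha7 is expressed in the digit-forming mesenchyme of the mouse and depends there on Hoxa13, which is needed to form the hand and foot. Epha3 belongs to the same class of receptors, those that bind mainly ephrin-A ligands. Hoxa11 belongs to the same class of factors and is needed for the middle segment of the limb.

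Gene positions in mm9 were not used here, so no peak was placed in an exon, an intron, a UTR or a promoter, and a peak in a window is not a peak assigned to its receptor gene. Whether each window holds the receptor gene it is named for was not checked. In the RefSeq table of GRCm38.p6, the protein-coding neighbours are Pros1 and Csnka2ip for Epha3, Slc4a3 and Pax3 for Epha4, and Manea and Map3k7 for Epha7. The promoters of the 3 receptors are shown because they are the regulatory sequences whose letters were in hand. They come from RefSeq for GRCm38.p6, whose coordinates cannot be set beside the mm9 peaks: chr16:63864126-63864425 (minus strand) for Epha3, chr1:77515039-77515338 (minus strand) for Epha4 and chr4:28812881-28813180 (plus strand, the first of 2 listed starts) for Epha7. Each runs 5′ to 3′ along the gene, and capitals mark TTTAT, a core bound by posterior HOX proteins, and TAAT, the general homeodomain core, on either strand (ATAAA and ATTA in reverse).
Epha3: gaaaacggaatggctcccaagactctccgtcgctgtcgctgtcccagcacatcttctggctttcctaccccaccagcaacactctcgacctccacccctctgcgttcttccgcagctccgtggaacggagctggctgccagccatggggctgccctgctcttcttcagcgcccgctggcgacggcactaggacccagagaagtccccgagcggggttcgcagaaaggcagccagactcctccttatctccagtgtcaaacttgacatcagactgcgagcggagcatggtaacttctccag
Epha4: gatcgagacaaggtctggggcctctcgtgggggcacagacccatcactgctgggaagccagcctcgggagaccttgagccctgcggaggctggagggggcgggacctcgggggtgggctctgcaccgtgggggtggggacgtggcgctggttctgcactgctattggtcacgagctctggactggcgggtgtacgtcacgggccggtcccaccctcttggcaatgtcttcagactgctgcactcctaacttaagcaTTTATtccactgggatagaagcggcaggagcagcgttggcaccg
Epha7: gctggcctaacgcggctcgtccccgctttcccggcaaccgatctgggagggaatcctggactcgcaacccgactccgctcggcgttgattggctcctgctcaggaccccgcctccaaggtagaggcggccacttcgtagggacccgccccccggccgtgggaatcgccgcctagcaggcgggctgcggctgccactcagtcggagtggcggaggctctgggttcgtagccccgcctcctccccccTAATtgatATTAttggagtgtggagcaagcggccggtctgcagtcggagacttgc
The Epha3 promoter holds neither core, the Epha4 promoter holds TTTAT once and the Epha7 promoter holds TAAT and its reverse. Of 32851 promoters of this length, 40.0% hold TTTAT and 58.0% hold TAAT, and both short cores were chosen after the promoters had been seen. The longer motifs CAATAAA (reverse TTTATTG) and TAATTA, which contains TAAT, occur in 4.60% and 5.29% of promoters and in none of the 3. Among 21 of 22 Eph receptor and ephrin genes with a listed promoter, CAATAAA was present at Epha6, and TAATTA at Epha5 and the ligand gene Efna1. No match says only that these letters are not in this window.

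Hoxa13 peaks were dense in the Epha3 window at every stage. Its counts were 47 (E11.0), 161 (E11.5) and 62 (E12.5), whereas the median tile of 1000 kb on chromosomes 1 to 19 and X held 17, 52 and 15. Tiles with at least as many peaks, the window itself among them, made up 2.04%, 0.118% and 0.667% of 2549 tiles at the successive stages. These shares show how the window was picked, and nothing is read from them. The density was 2.43, 2.91 and 3.65 times the density of the same list over those chromosomes. Peaks were fewer on both sides: the 1000 kb before the window held 35, 78 and 22 peaks, and the 1000 kb after it held 29, 90 and 25. The window was selected on its count, so nothing is read from the density ratios or the lower counts beside it.

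Of every 1000 Hoxa13 peaks the Epha3 window took 0.924 (E11.0), 1.12 (E11.5) and 1.39 (E12.5). As percentages of the lists these are 0.0924% (exact Clopper-Pearson 95% interval 0.0679 to 0.123), 0.112% (0.0956 to 0.131) and 0.139% (0.106 to 0.178). The intervals cover counting over peaks only, and those of neighbouring stages overlap. Limited to the 44699 widest peaks, the length of the shortest list, the 3 stages gave the window 41, 69 and 62 peaks, and 2.28%, 0.118% and 0.667% of tiles then held at least as many. At that length the order of the later 2 stages turned, to 1.54 (E11.5) and 1.39 (E12.5) per 1000 peaks, and E11.0 stayed lowest at 0.917.

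The Epha4 window was above the density of the list at E11.5 and below it at E11.0 and E12.5. Its Hoxa13 counts were 7 (E11.0), 45 (E11.5) and 10 (E12.5), and the median tile of 650 kb held 11, 34 and 10. Of 3949 tiles, 71.8%, 30.1% and 51.7% held at least as many. Its density was 0.557, 1.25 and 0.905 times that of the list. The 650 kb before the window held more at every stage, with 19, 93 and 29 peaks, and the 650 kb after it held 13, 25 and 5.

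The Epha7 window was intermediate. Its Hoxa13 counts were 16 (E11.0), 66 (E11.5) and 21 (E12.5), against 12, 36 and 11 in the median tile of 700 kb. At least as many were held by 34.4%, 10.1% and 11.0% of 3659 tiles. The density was 1.18, 1.70 and 1.76 times that of the list, and the 700 kb on either side held more peaks at each stage, with 31, 84 and 27 before and 23, 69 and 25 after. Among the Hoxa13 lists, the density relative to the list was lowest at E11.0, the autopod library, in each of the 3 windows. The same held for counts at one list length: the Epha4 window held 7, 15 and 10 of the 44699 widest peaks in stage order, and the Epha7 window held 16, 26 and 21. At that length, 66.5%, 28.7% and 51.7% of tiles held at least as many peaks as the Epha4 window, and 26.6%, 6.56% and 11.0% as many as the Epha7 window. As shares of the full lists, the E11.0 exact intervals overlapped those of both later stages in each window. In stage order they were 0.00553% to 0.0283%, 0.0229% to 0.0420% and 0.0107% to 0.0411% for Epha4. For Epha7 they were 0.0180% to 0.0511%, 0.0356% to 0.0585% and 0.0291% to 0.0718%. Differences between stages were not tested.

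**Figure D1:**
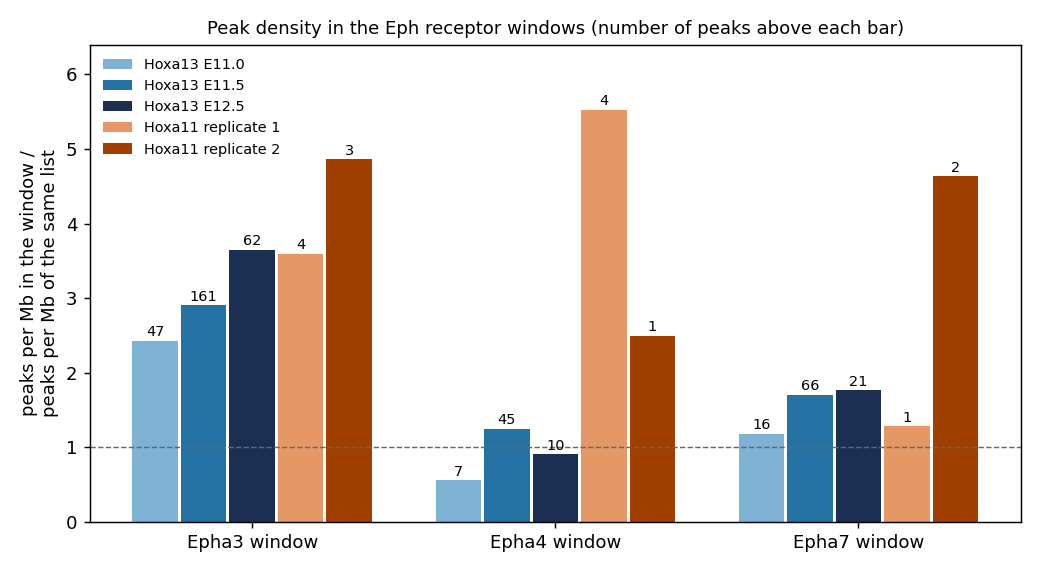
Peaks per Mb in each window divided by the peaks per Mb of the same list on chromosomes 1 to 19 and X (vertical axis, ratio), for the 5 lists, with the number of peaks above each bar and 1 library per bar. The Hoxa13 bars of the Epha3 window reach 2.43, 2.91 and 3.65, those of the Epha4 window lie at 0.557, 1.25 and 0.905, and the Hoxa11 bars rest on 1 to 4 peaks each.

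**Figure D2:**
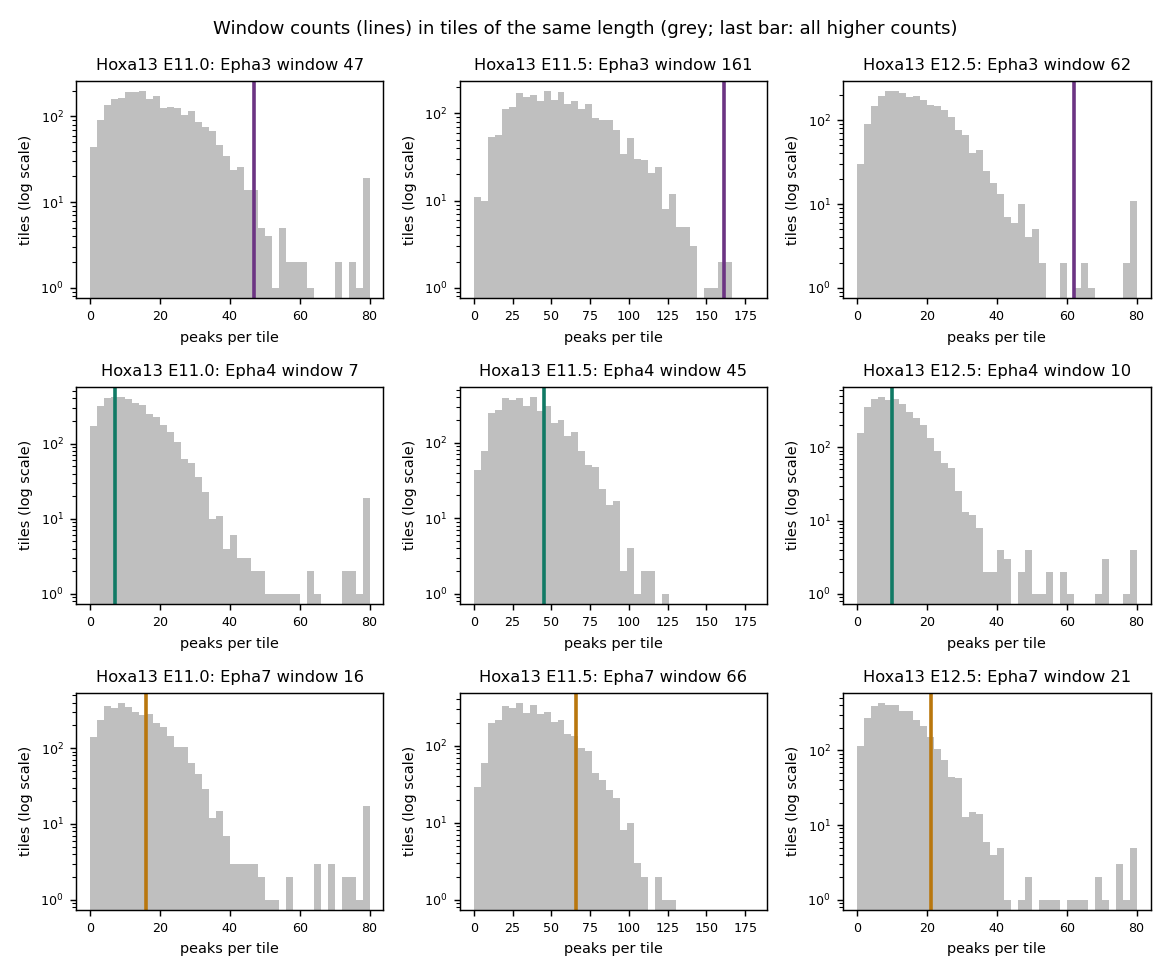
Number of Hoxa13 peaks per tile (horizontal axis) in tiles of each window's length, as a histogram with a log count axis, and the window's own count as a coloured line. The Epha3 line stands in the right tail at all stages, at 47, 161 and 62 peaks, and the Epha4 line at 7, 45 and 10 stands in the bulk of the tiles.

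Peaks continued beyond each bound. The outermost peaks inside the Epha3 window start 8.09 kb above the lower bound and 0.673 kb below the upper bound, and the nearest ones outside lie 3.52 and 4.47 kb away. For Epha4 the distances are 3.81 and 9.43 kb inside and 0.873 and 0.939 kb outside. For Epha7 they are 5.75 and 25.4 kb inside and 1.18 and 0.638 kb outside. The widths of these peaks ran from 143 to 564 bp.

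When overlapping peaks of all 5 lists were merged, the Epha3 window held 182 sites, the Epha4 window 51 and the Epha7 window 77. The sites covered 6.44%, 2.55% and 3.51% of their windows. The median gap between neighbouring sites was 3.73 kb in the Epha3 window, 6.88 kb in the Epha4 window and 6.62 kb in the Epha7 window. Taken by list, neighbouring E11.5 Hoxa13 peaks of the Epha3 window had a median gap of 3.88 kb, against 9.70 kb in the whole list. Those of the Epha4 and Epha7 windows had median gaps of 7.81 and 8.72 kb. In the Epha3 window the short gap follows from the peak count on which the window was selected, and nothing is read from it.

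Sites were unevenly spread along the Epha3 window. The later 500 kb held 113 sites and the earlier 500 kb held 69. All 3 Hoxa13 lists had this skew, with 32 of 47, 100 of 161 and 42 of 62 peaks, in stage order, in the later 500 kb. The lists share many of these sites, and the split was not compared with that of other tiles. The richest bin of 50 kb, from 63550001 to 63600000, held 21 sites, with 4, 18 and 7 Hoxa13 peaks in stage order. The poorest, from 63100001 to 63150000, held 3 sites, and the median of the 20 bins was 8. The longest stretch without a site ran 41.4 kb, from 63118879 to 63160299.

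The Epha4 window had 30 sites in its earlier 325 kb and 21 in its later 325 kb, with a maximum of 7 in a bin of 50 kb, reached in the bins from 77300001 to 77350000 and from 77600001 to 77650000. The bin from 77500001 to 77550000 was empty in all 5 lists. The longest gap, 53.5 kb, ran from 77732660 to 77786196. In the Epha7 window the earlier and later 350 kb held 37 and 40 sites. At E11.0, however, 11 of the 16 peaks lay in the earlier part. The richest bins held 8 sites each, from 28800001 to 28850000, from 28850001 to 28900000 and from 28950001 to 29000000, and the longest gap was 34.3 kb, from 28722271 to 28756613.

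**Figure D3:**
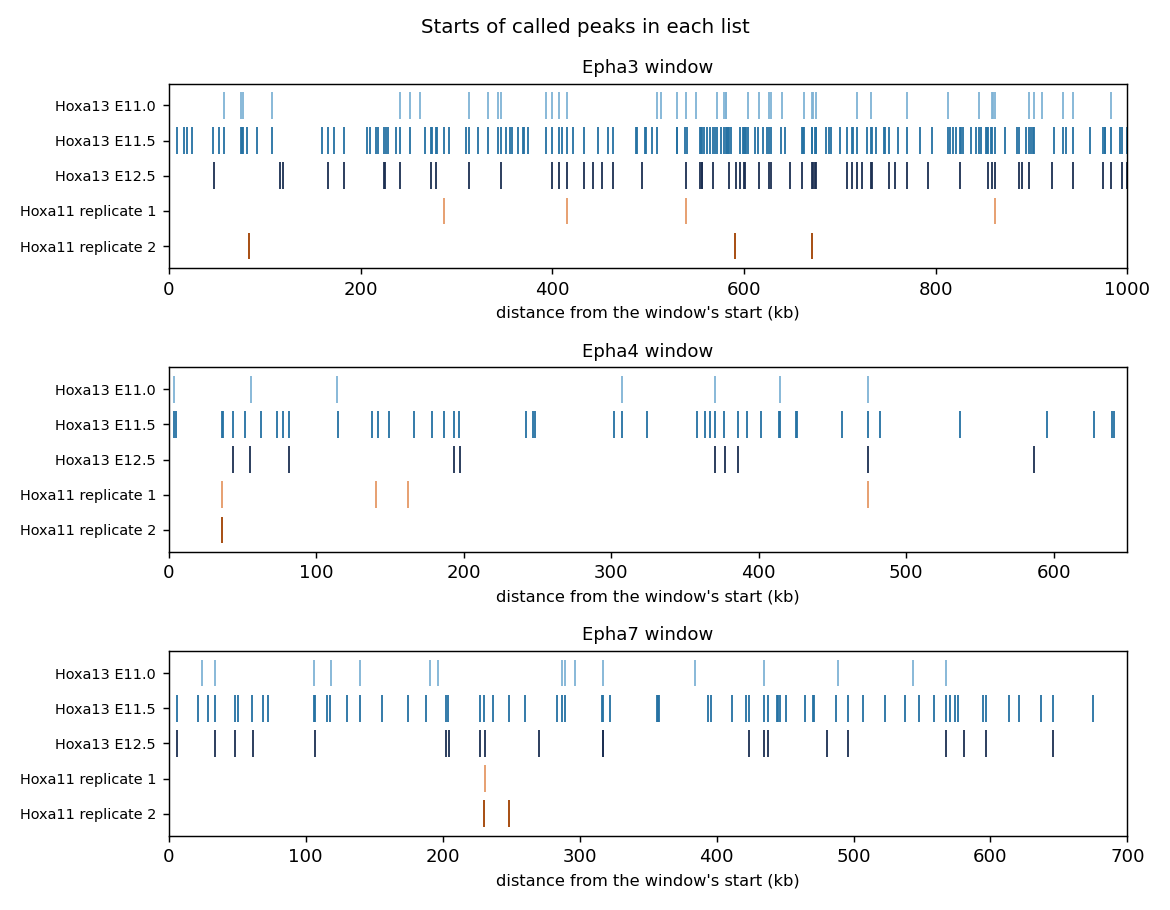
Start of every called peak as a tick along each window (horizontal axis, distance from the window's start in kb), with 1 row per list. The Epha3 window has most ticks at E11.5 and thickens after 500 kb at all Hoxa13 stages. The Epha4 window has an empty stretch between 482.7 and 536.2 kb in all lists. Hoxa11 gives 4, 4 and 1 ticks in replicate 1 and 3, 1 and 2 in replicate 2.

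Most Hoxa13 peaks of E11.0 in the Epha3 window recurred at E11.5. By an overlap of at least 1 bp, 42 of 47 did (89.4%, exact 95% interval 76.9 to 96.5), where 58.1% of the whole E11.0 list did. In the Epha4 window 5 of 7 met an E11.5 peak, and in the Epha7 window 8 of 16 (interval 24.7% to 75.3%). The E11.5 list was denser in the Epha3 window than over chromosomes 1 to 19 and X, at 161 peaks per Mb against 55.4, and the part of that density in the share was not tested. At one list length the Epha3 share was 28 of 41 peaks (68.3%, 51.9 to 81.9), where 36.1% of the list met E11.5. An overlap of at least 50% of both peaks gave 57.4% (42.2 to 71.7) in the Epha3 window and 47.3% in the whole list, a share within that interval. An E12.5 peak was met by 20 of 47 E11.0 peaks in the Epha3 window (42.6%, 28.3 to 57.8), 2 of 7 in the Epha4 window and 4 of 16 in the Epha7 window, beside 30.7% of the whole E11.0 list.

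Of the E12.5 peaks, 48 of 62 met E11.5 in the Epha3 window (77.4%, 65.03 to 87.1), 8 of 10 in the Epha4 window and 18 of 21 in the Epha7 window (85.7%, 63.7 to 97.0), beside 70.7% of the whole E12.5 list. By any overlap of the full lists, the background share lies within each of these intervals. At equal list length the Epha3 share was 38 of 62 (61.3%, 48.1 to 73.4). The list's 43.2% lay below that interval and within those of Epha4 and Epha7. Under an overlap of at least 50% of both peaks, the Epha7 share was 11 of 21 (52.4%, 29.8 to 74.3). The list's 29.6% lay just below that interval and within those of Epha3 and Epha4. The part of the E11.5 peak density in these shares was not tested. The next shares again use any overlap. An E11.0 peak was met by 20 of 62 E12.5 peaks in the Epha3 window (32.3%, 20.9 to 45.3), 2 of 10 in the Epha4 window and 4 of 21 in the Epha7 window (interval 5.45% to 41.9%), beside 35.6% of the whole list. Counted from E11.5, 39 of 161 peaks of the Epha3 window met E11.0 (24.2%, 17.8 to 31.6) and 46 met E12.5 (28.6%, 21.7 to 36.2), beside 20.5% and 21.7% of all E11.5 peaks. In the Epha4 window 5 of 45 met E11.0 and 8 met E12.5. In the Epha7 window 8 of 66 met E11.0 (12.1%, 5.38 to 22.5) and 18 met E12.5 (27.3%, 17.0 to 39.6).

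Hoxa13 sites of all 3 stages were counted as E11.5 peaks that met both an E11.0 and an E12.5 peak. They numbered 20 in the Epha3 window, 2 in the Epha4 window and 4 in the Epha7 window. Within the E11.5 peak from 63858439 to 63860390, the E11.0 and E12.5 peaks did not meet each other. The sites made up 12.4% of the E11.5 peaks in the Epha3 window (7.76 to 18.5), 4.44% in the Epha4 window (0.543 to 15.1) and 6.06% in the Epha7 window (1.68 to 14.8). Of the whole E11.5 list, 9.60% of peaks met both other stages, a value within each of these intervals. Counted from E11.0, 20 of 47 peaks of the Epha3 window met both other stages (42.6%, 28.3 to 57.8), above the 26.8% of the whole list. In the Epha4 and Epha7 windows 2 of 7 and 4 of 16 did. The Epha3 window was selected on its Hoxa13 peak count, and the part of its peak density in the 42.6% was not tested. Under an overlap of at least 50% of both peaks, its sites of all 3 stages numbered 6. Those of the Epha4 and Epha7 windows numbered 1 and 3. The share of the whole list under that rule was not set beside these counts, so nothing is read from the drop. Counted from E12.5, 20 of 62 peaks of the Epha3 window met both other stages (32.3%, 20.9 to 45.3). In the other windows 2 of 10 and 4 of 21 did, and in the whole list 30.8%. The site from 63671140 held 2 of the peaks so counted at E11.0 and 2 at E12.5, and the one from 63858439 held none. Each of the 26 E11.0 peaks that met an E12.5 peak also met an E11.5 peak. In the whole E11.0 list 3.91% of peaks met E12.5 without E11.5, and none of 70 did in the windows, which allows a share of up to 5.13% (upper exact bound). The remaining E11.5 peaks of the Epha3 window were 19 with E11.0 only, 26 with E12.5 only and 96 found in no other Hoxa13 list (59.6%, 51.6 to 67.3). In the Epha4 window 34 of 45 and in the Epha7 window 44 of 66 met no other stage, beside 67.4% of all E11.5 peaks.

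Some E11.0 peaks were shared with no other Hoxa13 stage. There were 5 such peaks of 47 in the Epha3 window (10.6%, 3.55 to 23.1), 2 of 7 in the Epha4 window (28.6%, 3.67 to 71.0) and 8 of 16 in the Epha7 window (interval 24.7% to 75.3%), with 37.9% in the whole list. These peaks come from 1 library, and differences between the windows were not tested. The Epha3 window was selected on its Hoxa13 peak count, and the part of its E11.5 peak density in the 10.6% was not tested. At E12.5 the peaks shared with no other stage were 14 of 62 in the Epha3 window (22.6%, 12.9 to 35.0), 2 of 10 in the Epha4 window and 3 of 21 in the Epha7 window, with 24.5% in the whole list. Peaks shared with E11.5 only were 28 of 62, 6 of 10 and 14 of 21 in the same order, with 39.9% in the whole list. None of the 93 was shared with E11.0 only (upper exact bound 3.89%), whereas 4.81% of the list were, a share above that bound. The part of the E11.5 peak density of the windows in this count was not tested.

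**Figure D4:**
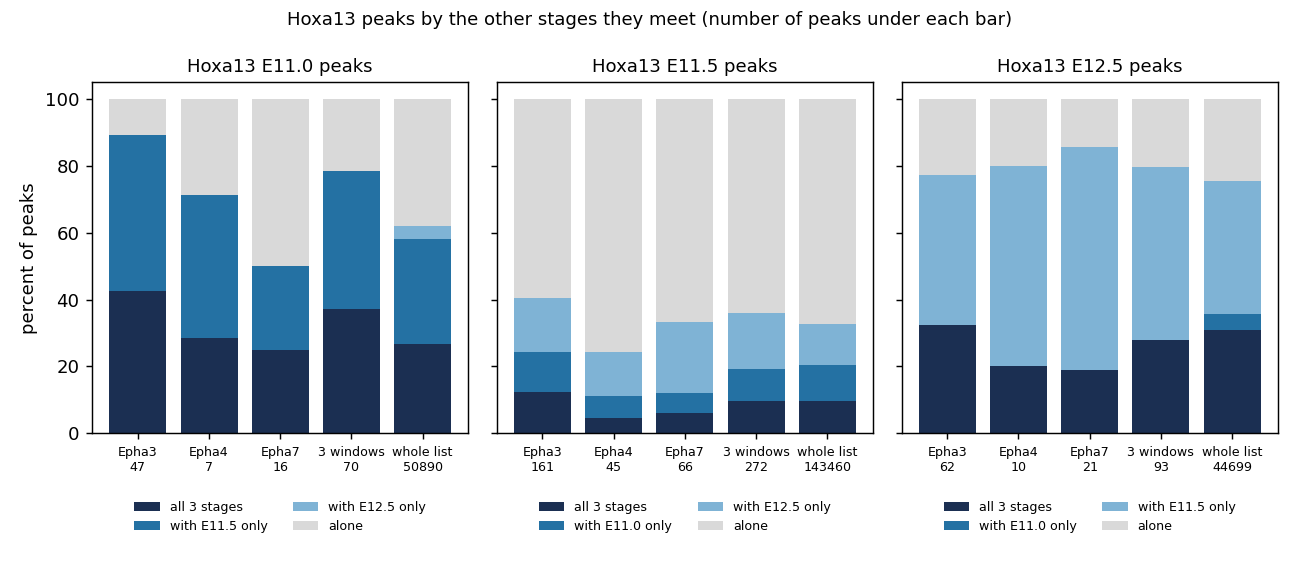
Percent of Hoxa13 peaks (vertical axis) that meet both other stages, only 1 of them or none, by window, in the 3 windows together and in the whole list, with the number of peaks under each bar. At E11.0 the grey share alone is 5 of 47 peaks in the Epha3 window, 2 of 7 in the Epha4 window and 8 of 16 in the Epha7 window, and at E11.5 it is 59.6%, 75.6% and 66.7% in the Epha3, Epha4 and Epha7 windows.

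The sites called in most lists were few. In the Epha3 window 4 sites were found in 4 lists, at 63414885 to 63415377, 63538987 to 63539995, 63671140 to 63672061 and 63861664 to 63862212. All 4 held Hoxa13 at the 3 stages and Hoxa11 in 1 replicate. At the site of 63538987 the Hoxa13 peaks were 239 bp (E11.0), 1009 bp (E11.5) and 636 bp (E12.5) wide, and the Hoxa11 peak of replicate 1 was 237 bp wide. That Hoxa11 peak lay within the E11.5 peak and 75 bp from the E11.0 peak. The E12.5 peak was the widest of its stage in the window, at percentile 99.6 of widths in the E12.5 list. The fifth site by this ranking, from 63858439 to 63860390, was a single E11.5 peak of 1952 bp, the widest member of any list, at percentile 99.98 of widths. It joined 2 E11.0 peaks of 266 and 289 bp and 1 E12.5 peak of 247 bp, and no Hoxa11 peak. The site from 63861664 lies 1.27 kb beyond its end.

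In the Epha4 window 1 site was found in 4 lists, from 77724132 to 77724798. Its Hoxa13 peaks were 340, 667 and 291 bp wide at E11.0, E11.5 and E12.5, and it held a Hoxa11 peak of replicate 1 of 209 bp. The other Epha4 site of all 3 stages ran from 77620047 to 77620726, with widths of 542, 680 and 499 bp, and held no Hoxa11 peak. Its E11.0 and E12.5 peaks were the widest of those stages in the window. The widest E11.5 peak, 905 bp from 77446967, met E12.5 only. The next sites by this ranking ran from 77286012 to 77286413, with Hoxa11 in both replicates, and from 77626780 to 77627379, with Hoxa13 at E11.5 and E12.5.

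In the Epha7 window the site in 4 lists ran from 28630364 to 28631031. It held Hoxa11 in both replicates, Hoxa13 peaks of E11.5 (480 bp) and E12.5 (145 bp), and none of E11.0. The 4 sites of all Hoxa13 stages ran from 28433976 to 28434453, from 28717137 to 28717505, from 28834904 to 28835352 and from 28967790 to 28968147, and none held a Hoxa11 peak. The site at 28433976 had the widest E11.0 peak of the window, at 478 bp, with 373 bp at E11.5 and 195 bp at E12.5. The widest E11.5 peak, 784 bp from 28811248 to 28812031, was found at no other stage. The widest E12.5 peak, 351 bp from 29045954, met E11.5 only.

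Over the 3 windows Hoxa11 had 9 peaks in replicate 1 and 6 in replicate 2. They are 0.305% of the replicate 1 list (0.139 to 0.578) and 0.364% of the replicate 2 list (0.134 to 0.791). Replicate 1 had 4 peaks in the Epha3 window, 4 in the Epha4 window and 1 in the Epha7 window, and replicate 2 had 3, 1 and 2. At least 4 replicate 1 peaks were held by 6.98% of tiles of the Epha3 length and by 3.17% of tiles of the Epha4 length, and at least 1 by 40.2% of tiles of the Epha7 length. For replicate 2 the shares were 5.14%, 23.4% and 7.84%. The density ratios above 1 in both replicates and all windows rest on these few peaks.

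The Hoxa11 replicates called different sites in the Epha3 window. None of the 4 peaks of replicate 1 met any of the 3 of replicate 2, while 35.8% of all replicate 1 peaks met replicate 2 and 64.6% of all replicate 2 peaks met replicate 1. With 0 of 4 peaks, a share of up to 60.2% (upper exact bound) is allowed, so a departure from the lists was not detectable at this number. In the Epha4 window 1 site was seen in both replicates, from 77286165 to 77286366 in replicate 1 and to 77286413 in replicate 2. In the Epha7 window there was also 1, from 28630635 to 28630837 in replicate 1 and from 28630364 to 28631031 in replicate 2. These 2 replicated sites stand against 13 sites called in either replicate, or 15.4%, and over the whole genome 29.2% of sites of either replicate were in both. With so few sites no interval was computed for this share, and a difference from the genome was not tested.

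Every Hoxa11 peak of replicate 1 in the Epha3 window lay at a Hoxa13 peak of E11.5 (4 of 4, exact interval 39.8% to 100%). Of the whole replicate 1 list 71.0% did, a share within that interval. The 4 peaks started at 63287357, 63415041, 63539212 and 63861782, and 3 of them also met Hoxa13 at E12.5. The first met neither E11.0 nor E12.5. In replicate 2 the peak at 63671140 met Hoxa13 at all stages, whereas those at 63083876 and 63590960 met none. The nearest E11.5 Hoxa13 peak was 1668 bp from the one and 4461 bp from the other. For the peak at 63590960 the nearest E12.5 peak was 803 bp away.

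In the Epha4 window, the replicated Hoxa11 site at 77286165 met Hoxa13 at E11.5 and at no other stage, where the nearest peaks lay 19362 bp (E11.0) and 7218 bp (E12.5) from the replicate 1 peak. The replicate 1 peaks at 77390436 and 77412210 met no Hoxa13 peak, with E11.5 peaks 932 and 3895 bp away. The peak at 77724286 met all stages. In the Epha7 window, the replicated site met both later Hoxa13 lists, and its nearest E11.0 peak was 34061 bp from the replicate 1 peak. The second replicate 2 peak, from 28648449 to 28648686, met Hoxa13 at E11.5 only.

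In all, 7 of 9 replicate 1 peaks (77.8%, 40.0 to 97.2) and 4 of 6 replicate 2 peaks (66.7%, 22.3 to 95.7) met Hoxa13 at E11.5, close to the 71.0% and 70.8% of the whole lists. At E12.5, 5 of 9 and 2 of 6 met Hoxa13, beside 48.8% and 55.7%, and at E11.0 the counts were 3 of 9 and 1 of 6, beside 23.9% and 30.5%. Counted from the 272 Hoxa13 members of E11.5, 7 held a Hoxa11 peak of replicate 1 (2.57%, 1.04 to 5.23) and 4 one of replicate 2 (1.47%, 0.402 to 3.72), beside 1.46% and 0.803% of the whole list. By its title, 1 input library served both Hoxa13 at E11.5 and Hoxa11 replicate 1. Its part in the overlap of those lists was not tested.

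The replicate 2 list gives the authors' own fold enrichment, a ratio over the background of the peak caller, and its score. The replicated Epha7 peak had the highest of the windows, 5.30-fold with a −log10 q-value of 11.4, and ranked 426 by score among 1647 peaks. The other Epha7 peak had 4.68-fold and rank 653. In the Epha3 window the peak at 63671140, the one that met Hoxa13, had 4.37-fold and those at 63083876 and 63590960 had 4.13-fold and 4.05-fold. The replicated Epha4 peak had the lowest fold enrichment, 3.83. The median of the whole list was 3.90-fold, and 5 of the 6 peaks exceeded it. By score only the 2 peaks of the Epha7 window exceeded the list's median, and the 6 score ranks ran from 426 to 1011.

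The median width of Hoxa13 peaks in each of the 3 windows exceeded that of the list at the 3 stages, and at E11.5 peaks found in another list had higher medians than the rest. At E11.5 the median width was 313 bp in the Epha3 window, 289 bp in the Epha4 window and 294.5 bp in the Epha7 window, with 286 bp in the whole list. The range over the 3 windows was 203 to 1952 bp. Of the 272 E11.5 members, 152 (55.9%) were wider than the list's median, which 49.9% of the list exceeded. E11.5 members that met any other list had a median of 378 bp (101 peaks), and those that met none had 267 bp (171 peaks). A wider peak is met more easily, so the width and the meeting are not independent.

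At E11.0 the medians were 259 bp (Epha3), 266 bp (Epha4) and 253.5 bp (Epha7), with 245 bp in the list. Of 70 members 60.0% exceeded the list's median, against 49.6% of the list. At E12.5 the medians were 162, 159 and 198 bp, with 154 bp in the list. In the Epha7 window 17 of 21 E12.5 peaks (81.0%) exceeded the list's median, against 49.9% of the list. The widest E11.0 peak of the Epha3 window, 479 bp from 63261809 to 63262287, met no peak of any other list although it stood at percentile 96.4 of widths in its own list.
The Hoxa11 peaks of replicate 1 were narrow, with a median of 209 bp over the 9 peaks and 283 bp in the list. Of those 9, 2 exceeded the list's median, whereas 49.7% of the list did. In replicate 2, 3 of 6 did.

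**Figure D5:**
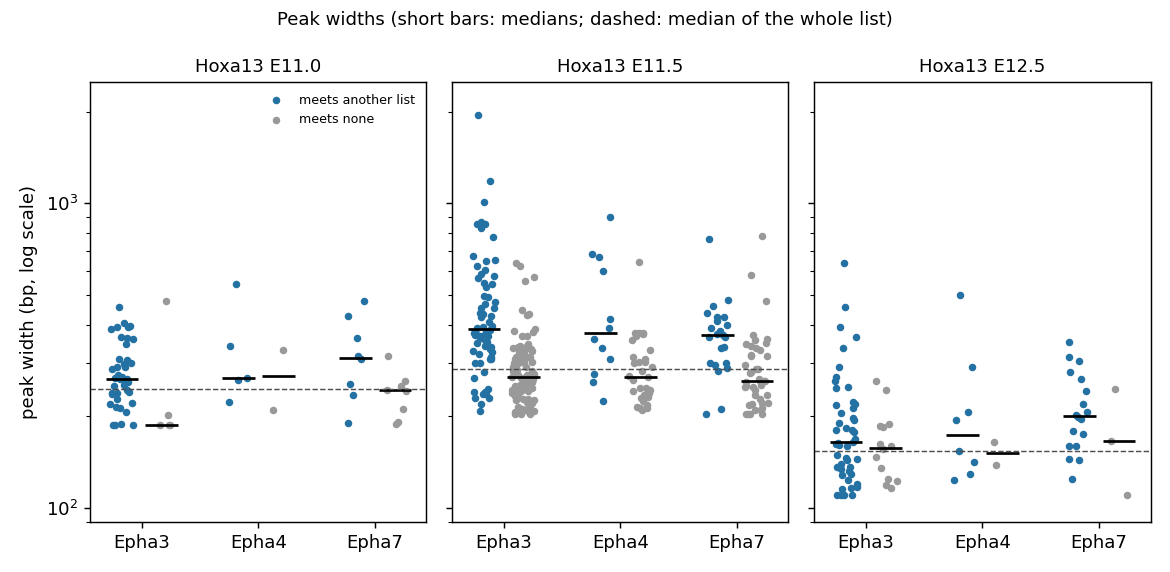
Width of each Hoxa13 peak in the windows (vertical axis, bp, log scale) at the 3 stages, split into peaks that meet any other list (blue) and none (grey), with group medians as short bars and the whole list's median as a dashed line. At E11.5 the blue medians lie at 386, 374.5 and 369 bp and the grey ones at 269, 268 and 260 bp in the Epha3, Epha4 and Epha7 windows.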

How the data were processed

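ChIP-seq peak lists of 5 libraries were analysed. CASAVA 1.4, Bowtie2 2.2.2, MACS2 2.1.0 and mm9 were used, per the submitters' processing notes, which as used here give no role, threshold, duplicate handling or use of input. The authors deposited chromosome, start and end of each peak. The deposited list of Hoxa11 replicate 2 also gives the authors' score, fold enrichment (a ratio), −log10 p-value and −log10 q-value, and the score equals the whole part of 10 times −log10 q in 100% of peaks. Peaks were called per library, and no label says whether the Hoxa11 replicates came from separate litters, so their spread may be technical.

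Members were peaks whose start lay within the window. Positions are printed 1-based. Overlap meant at least 1 bp. Tiles of each window's length, counted from 0, lay within the span of peaks on chromosomes 1 to 19 and X. Shares carry exact Clopper-Pearson intervals at 95%, which cover counting error over peaks only. No test was run: peaks are not replicates and each Hoxa13 stage has 1 library. Interval functions were tested on simulated data. Named items were every Hoxa11 peak, per window the 5 sites in most lists (ties by width), the widest peak per Hoxa13 list, the richest bin of 50 kb and the longest gap. The poorest and empty bins, the sites of all Hoxa13 stages beyond these and the short promoter cores were named after their values were seen. The members, windows and lists were chosen with earlier results of these data known. HOX motifs in peaks, planned for a genome of mm9, were not counted. Python 3.11.15, numpy 2.4.6, pandas 2.3.3, scipy 1.17.1 and matplotlib 3.10.9 were used. Alternatives covered membership, bounds, list length, overlap, tiling, merging and replicates.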

Additional observations from a re-analysis of the deposited data

How the results depend on the processing

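Of 171 recomputed values, 134 stayed within 1.5 times the reported density, count or width, or within the exact interval of the reported share. Peak widths, merged sites, and densities under the alternative rules of membership did so throughout, and so did ranks with shifted tiles. At equal list length the E11.5 Hoxa13 density was 69.0 peaks per Mb (Epha3), 23.1 (Epha4) and 37.1 (Epha7), fewer by construction. The shares of tiles with at least as many peaks were then 66.5% (Epha4, E11.0), 26.6% (Epha7, E11.0) and 6.56% (Epha7, E11.5). Over autosomes only they were 32.0% (Epha4, E11.5), 54.4% (Epha4, E12.5) and 42.3% (Epha7, Hoxa11 replicate 1). Narrowing the Epha4 window by 100 kb on either side left 0 peaks of Hoxa11 replicate 2.

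Of the reported overlap shares, 18 of 36 recomputed values stayed within their interval, and of the Hoxa11 site counts 2 of 9 stayed within 1.5 times. Under 50% reciprocal overlap, the Epha3 shares were 57.4% (E11.0 meeting E11.5), 21.3% (E11.0 meeting E12.5), 16.8% (E11.5 meeting E11.0), 10.6% (E11.5 meeting E12.5), 16.1% (E12.5 meeting E11.0) and 27.4% (E12.5 meeting E11.5), against 47.3%, 19.2%, 16.8%, 9.23%, 21.9% and 29.6% of the whole lists. The Epha4 shares were 4.44% (E11.5 meeting E12.5) and 20% (E12.5 meeting E11.5), and those of Epha7 were 16.7% and 52.4%. The interval of the 52.4%, 29.8% to 74.3%, lay just above the 29.6% of the whole list. Sites of all 3 stages then numbered 6 (Epha3), 1 (Epha4) and 3 (Epha7), without a share of the whole list under that rule beside them. At equal list length, E11.0 met E11.5 at 68.3% and E12.5 met E11.5 at 61.3% (Epha3), against 36.1% and 43.2% of the whole lists. The Epha3 intervals, 51.9% to 81.9% and 48.1% to 73.4%, lay above those list shares. E11.5 met E11.0 at 37.7%, 26.7% and 23.1%, and E12.5 at 52.2%, 33.3% and 53.8%, in the Epha3, Epha4 and Epha7 windows, against 35.7% and 42.03% of the whole list. The cause of these moves was not tested.

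Hoxa11 sites of either replicate numbered 7, 4 and 2 in the Epha3, Epha4 and Epha7 windows, where those of both replicates numbered 0, 1 and 1. With 1 replicate left out there were 3 to 4, 1 to 4 and 1 to 2. No paired analysis was possible because the groups with peak lists share a single replicate number, 1, and no test between groups was run. Read depth, scores for 4 of the 5 lists and a second library per Hoxa13 stage would be needed to say more.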
